A study of Mus musculus with 12 samples.

Results

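Choroid plexus epithelial nuclei were chosen by the measured UMIs of 4 marker genes in a single-nucleus RNA sequencing survey of the newborn mouse forebrain. A unique molecular identifier (UMI) is a tag that lets copies of 1 captured molecule be counted once. Nuclei were kept at 800 to 6000 UMIs, 300 to 3000 genes and at most 1% mitochondrial UMIs. A kept nucleus counted as choroid plexus where Ttr, Folr1, Kl and Htr2c together held at least 3 UMIs in at least 2 of these genes, Ttr among them. Of 101766 kept nuclei, 298 (0.293%) met this rule, and they came from 5 of the 12 libraries.

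The forebrains came from mice of postnatal day 1 (P1), of which 8 were wild type (WT), 5 male and 3 female, and 4 were heterozygous (Het) for the Myt1l S710fsX allele, 3 male and 1 female. The allele is a frameshift in Myt1l, which encodes a transcription factor of neurons, and was carried on a C57BL/6 background. A library here means the nuclei of 1 animal. The paper states that barcodes added at reverse transcription marked the animal. The nuclei of all animals were then pooled and processed together. The libraries are named by genotype, sex and replicate.

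The choroid plexus is a sheet of ciliated epithelium that hangs in the brain ventricles and makes the cerebrospinal fluid. It moves ions across its cells so that water follows, carries vitamins and hormones from blood into the fluid, secretes proteins such as transthyretin, and closes the gaps between its cells with tight junctions. It grows from the dorsal midline (the roof plate and cortical hem).

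The 12 libraries held 126684 barcodes, with 15439429 to 40784144 UMIs per library, and 4797 to 11746 nuclei were kept in each. No barcode occurred in more than 1 library, which follows from the method, since a part of the barcode marks the animal. In the nuclei outside the choroid plexus set, Myt1l stood at 1266 to 1609 CPM (counts per 1000000, here UMIs of a gene per 1000000 UMIs of the same nuclei) in the 8 WT libraries and at 1534 to 1654 in the 4 Het libraries. A frameshift need not remove the RNA, so this level does not check the genotype labels.

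Choroid plexus nuclei made up 0.118% of the kept nuclei in WT male 1 (13 of 11044), 0.478% in WT male 2 (35 of 7326), 0.323% in WT female 2 (33 of 10206), 1.09% in Het male 2 (117 of 10727) and 0.851% in Het male 3 (100 of 11746). The other 7 libraries, 5 WT and 2 Het, held none among 50717 kept nuclei. Taken as 3 counts of the total, a count of 0 allowed a share of up to 0.0274% in Het male 1, the largest of these libraries, and up to 0.0625% in WT female 3, the smallest. Exact (Clopper-Pearson) 95% intervals, which cover counting error only, ran from 0.0627% to 0.201% in WT male 1 and from 0.903% to 1.31% in Het male 2. The upper bounds of these intervals, which are wider than the limit of 3 counts, reached 0.0769% in WT female 3 and 0.0683% in WT male 4 among the 7 libraries without such nuclei, so the interval of WT male 1 overlapped theirs, while those of the other 4 libraries lay above them.

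**Figure D1:**
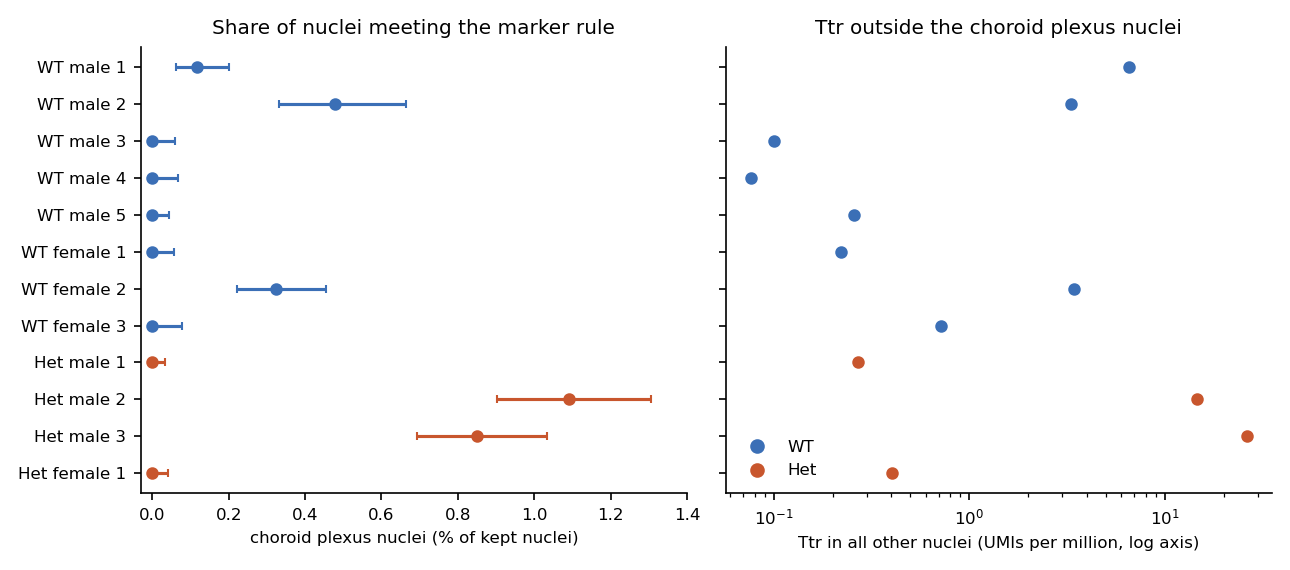
Left, the percent of kept nuclei that met the marker rule in each of the 12 libraries, with exact 95% intervals; right, Ttr CPM in all other nuclei of the same library on a log axis. The 5 libraries with choroid plexus nuclei are also the 5 with more than 3 Ttr CPM in their other nuclei.

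The share averaged 0.486% ± 0.569 (SD, n = 4) in Het and 0.115% ± 0.186 (SD, n = 8) in WT libraries, a difference of 0.371 percentage points. A two-sided exact permutation test over libraries did not separate the genotypes (p = 0.186). The difference ran from 0.169 to 0.533 percentage points when each library was left out in turn. The highest WT library lay at 0.478%, and 2 of the 4 Het libraries held no such nucleus.

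The same 5 libraries carried more Ttr outside the chosen nuclei. Ttr reached 3.32 to 26.4 CPM there, against 0.0762 to 0.714 in the other 7 libraries, and between 0.782% and 5.35% of the other nuclei of the 5 libraries held a Ttr UMI. The level was highest in Het male 3. Whether free RNA or further choroid plexus nuclei gave these UMIs was not tested.

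The 4 rule genes are described without a test, since they chose the nuclei. Htr2c, the serotonin 2C receptor, was the most abundant of them at 17038 ± 5466 CPM (SD, n = 5 libraries). Its values were 7751 in WT male 1, 20144 in WT male 2, 20564 in WT female 2, 20323 in Het male 2 and 16410 in Het male 3, and further values are given in this order of libraries. Ttr, which encodes transthyretin, the carrier of thyroxine, stood at 2982, 5835, 6840, 6276 and 4650. Folr1, the folate receptor of the epithelium, stood at 179, 131, 249, 141 and 112. Kl, the co-receptor Klotho, stood at 149, 78.7, 112, 69.6 and 25.4. WT male 1 was lowest for Htr2c and Ttr and highest for Kl.

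All 298 nuclei held Htr2c beside Ttr. Folr1 was found in 74, Kl in 35, either of them in 92 and all 4 genes in 17. The median nucleus held 11 Ttr UMIs, with 1884.5 UMIs over all genes. Most nuclei lay far from the threshold, as 265 had a sum of at least 10 over the 4 genes. Of the rest, 17 had a sum of 4 to under 10 and 16 one of 3 to under 4. Just outside the threshold, 66 nuclei had at least 2 of the genes with Ttr but a sum under 3. Another 6 held Ttr alone at a sum of 3 or more. All of these came from the 5 libraries that held choroid plexus nuclei.

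The label was checked with 22 choroid plexus markers that the rule had not used. Like the rule, their list was chosen with earlier results of these data known. At least 2 UMIs of these markers were found in 264 of the 298 nuclei (88.6%), with a median of 9.5 such UMIs per nucleus, and in 2.79% of all other nuclei. The share was 98.1% among the 265 nuclei with a sum of at least 10 and 11.8% among the 17 with a sum of 4 to under 10. Among the 16 just inside the threshold it was 12.5%, and among the 66 just outside 4.55%. It was 69.2% in WT male 1, 97.1% in WT male 2, 93.9% in WT female 2, 92.3% in Het male 2 and 82.0% in Het male 3.

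The 34 nuclei with fewer than 2 held-out UMIs looked different. Pooled, 12 pan-neuronal genes gave 28757 CPM in them and 7392 in the other 264. Gmnc gave 77.3 and 2291, and Trpm3 gave 2425 and 27809. They also had a median of 1 Ttr UMI, against 12. Of these 34 nuclei, 18 came from Het male 3, 9 from Het male 2 and 4 from the 13 nuclei of WT male 1. The data thus go against the name for these nuclei. They are kept below because they met the rule, and a selection of 256 nuclei with at least 3 Ttr UMIs is given as an alternative.

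Gene levels were compared with those of all other kept nuclei of the same 5 libraries, on counts summed per library. A gene was called where the adjusted p of the edgeR quasi-likelihood test was below 0.05 and the log2 difference at least 1 in size. Among 16322 genes tested, 1472 (9.02%) were higher and 2092 (12.8%) lower in choroid plexus nuclei. With library totals alone as the scale these counts were 2236 and 1080, and with RLE normalization 1668 and 1742. The split between higher and lower genes thus depends on the scaling. With DESeq2, which changes the test as well, the counts were 1483 and 1295. The median log2 difference of all genes was -0.30, and it was 0.14 when library totals alone set the scale, so a difference near the threshold depends on it too. Log2 differences below are on the main (TMM) scale, and levels are in CPM.

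Of the 22 held-out markers, 20 passed the filter on low counts, and 19 of these were higher, with a median log2 difference of 6.42. The filter keeps a gene that is high in either set of nuclei, so counts over the tested genes favour genes that differ, and the count without the filter is given beside each list of choroid plexus, cilium, ependymal and regional genes. Without it 3.94% of 40279 genes were higher and 5.92% lower. For the held-out markers it was 21 of 22, which adds Slc16a8 and Steap1, with 14 and 17 UMIs in all choroid plexus nuclei. Tmem72, which encodes a membrane protein of the epithelium, showed the largest difference of the list. It stood at 149, 629.5, 684, 584 and 350.3 CPM, and at 0.172 to 0.667 in the other nuclei (log2 difference 9.70 ± 0.28 SE, adjusted p = 4.6e-250). Every choroid plexus library lay above every set of other nuclei. A Tmem72 UMI was found in 59.1% of choroid plexus nuclei and in 0.107% of a sample of other nuclei that were not endothelial, and in 35.5% and 0.0134% after each nucleus was thinned to 800 UMIs.

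Enpp2, which encodes the secreted enzyme autotaxin, was the most abundant held-out marker at 1769 ± 380.3 (SD, n = 5), against 40.4 ± 13.7 in the other nuclei. Clic6, a chloride channel protein (7.07), Slc4a5, a sodium bicarbonate transporter (7.77), Car12, a membrane carbonic anhydrase (6.69) and Kcnj13, a potassium channel (6.50), had larger log2 differences than Enpp2 (4.99 ± 0.29 SE). Aqp1, the water channel of the apical membrane, stood at 0, 91.8, 124, 131 and 35.5, and at 0.967 to 1.93 in the other nuclei. The library at 0 was WT male 1, and the other 4 lay above all other nuclei. Prlr, the prolactin receptor, was the tested marker that was not called, with 4 UMIs in all choroid plexus nuclei.

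**Figure D2:**
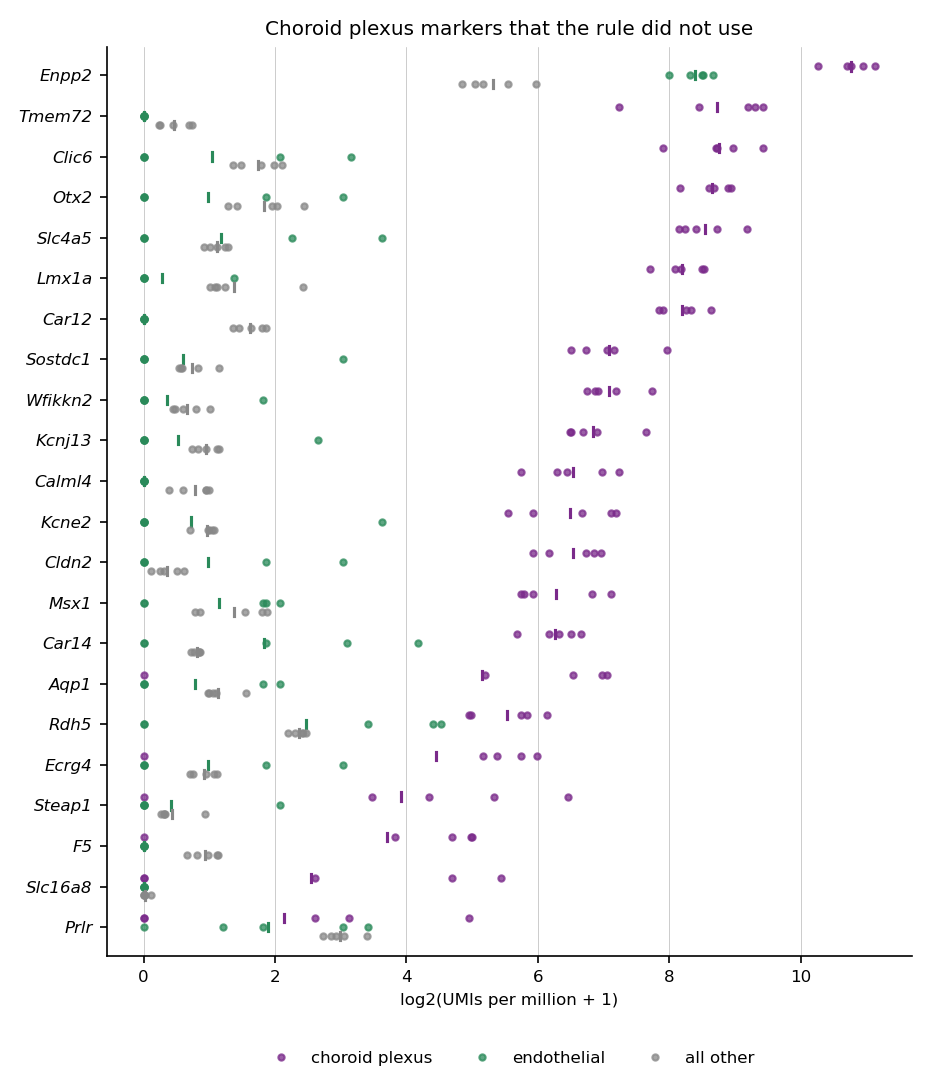
Level of the 22 held-out markers in choroid plexus, endothelial and all other nuclei of the 5 libraries, as log2(CPM + 1); points are libraries and bars are means. Nearly all choroid plexus points lie to the right of the other 2 kinds, Prlr being the exception and WT male 1 falling to 0 for Aqp1, Ecrg4, Steap1, F5 and Slc16a8.

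The transcription factors of the dorsal midline and of ciliated epithelium followed. Of 22 tested, 14 were higher and 2 lower, and without the filter 12 of 26 were higher and 2 lower. Without WT female 2, 11 of 22 were higher. Otx2, Lmx1a and Msx1 of this list were held-out markers as well. Otx2, a homeodomain factor needed for the choroid plexus, stood at 388, 472, 410.4, 487 and 284, with 1.43 to 4.41 in the other nuclei (log2 difference 6.75 ± 0.23 SE). Lmx1a, a factor of the roof plate, had a log2 difference of 6.94 ± 0.25 and Msx1, a target of BMP signals there, one of 5.23 ± 0.36. Zic4, a zinc finger factor of the dorsal midline, had a log2 difference of 2.32 ± 0.22. Nfib and Rfx4 were the 2 lower ones, and they were no longer called under 6 and 4 of the 15 other settings, both of them with totals alone and with DESeq2.

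Gmnc had a larger difference than any higher gene named outside the lists below. It encodes the protein GEMC1 at the start of the program that makes many cilia per cell. It stood at 954, 2610, 2517, 2160 and 1312 CPM in choroid plexus nuclei and at 1.82 to 3.09 in the other nuclei, a log2 difference of 9.09 ± 0.35 SE (adjusted p = 3.0e-148). The groups did not overlap in any library. A Gmnc UMI was found in 78.5% of choroid plexus nuclei, 0.6% of sampled other nuclei and 0.192% of endothelial nuclei, at median depths of 1884.5, 2003 and 2186.5 UMIs.

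The later factors of that program gave few UMIs. Mcidas, the partner of GEMC1, gave 1 UMI and Ccno, the cyclin that acts with it, gave 2 UMIs among 645747 UMIs of choroid plexus nuclei, and neither passed the filter. Foxj1, the factor that switches on motile cilium genes, was called higher with 27 UMIs, at 0, 39.3, 0, 54.1 and 50.8 (log2 difference 2.56 ± 0.42 SE), so that 2 of the 5 libraries held none. Trp73 (2.07 ± 0.38) and Rfx2 (2.92 ± 0.35) were higher too. Rfx3, an RFX factor of cilia, was abundant at 2263 ± 693 (SD, n = 5) against 741 ± 68.3, but its log2 difference of 1.07 ± 0.27 lay at the threshold, and it was not called under 5 of the 15 other settings.

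Of 41 tested genes of the motile cilium, 31 were higher, none was lower, and the median log2 difference was 2.71. Without the filter 31 of 42 were higher. Lrriq1, a protein of the axoneme, stood at 656, 1700, 1306, 1176 and 1213, against 17.8 to 28.1 in the other nuclei (5.23 ± 0.27 SE). Cfap43, needed for the beating of cilia and flagella, had a log2 difference of 4.77 ± 0.22, Drc7 of the dynein regulatory complex one of 5.03 ± 0.31 and Dnah6, an inner arm dynein, one of 4.19 ± 0.22. Each was higher in all 5 libraries, and the dyneins Dnah11 (4.18) and Dnah9 (2.14) were higher too. Other dyneins did not pass, among them Dnah5 and Dnah12. Dnah5, an outer arm dynein, gave 7.3 UMIs in all and Dnah12 stood at 29.8, 78.7, 0, 3.87 and 95.9.

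**Figure D3:**
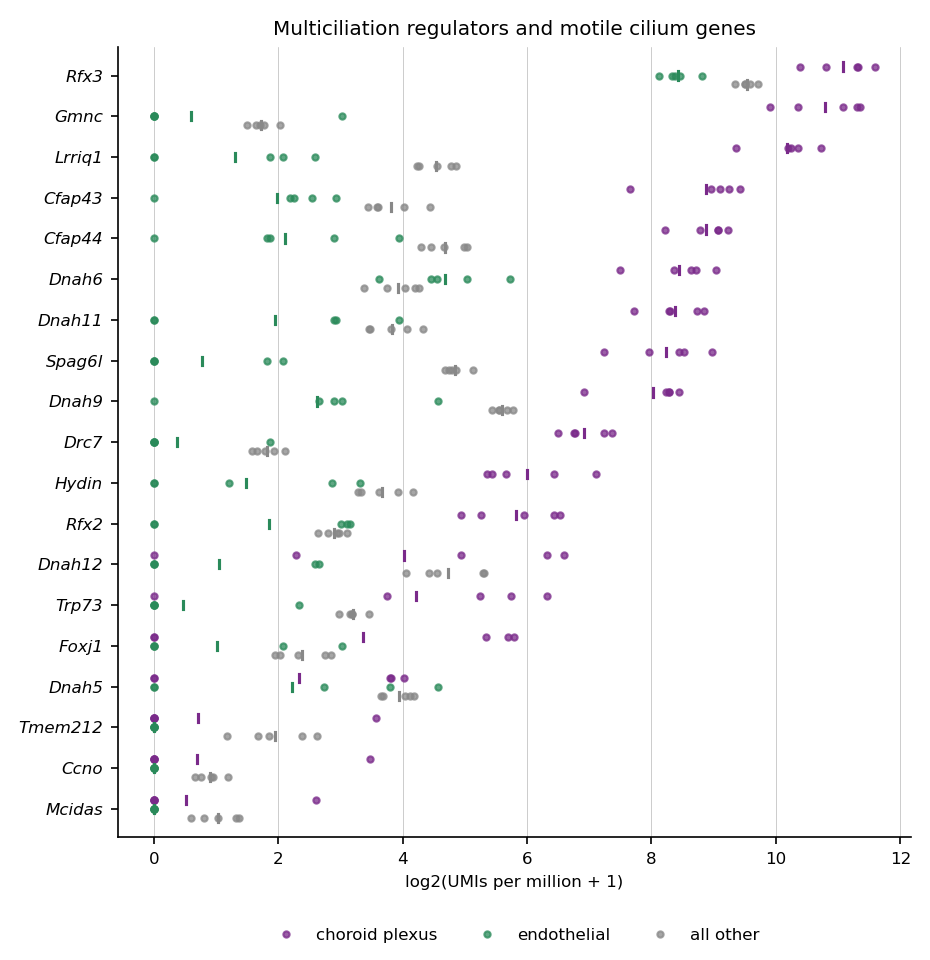
Level of 7 regulators of multiciliation and 12 motile cilium genes in choroid plexus, endothelial and all other nuclei, as log2(CPM + 1); points are the 5 libraries and bars are means. Gmnc and the axoneme genes from Lrriq1 to Drc7 stand apart from the other nuclei, while Mcidas, Ccno and Tmem212 are at 0 in most choroid plexus libraries.

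Ependymal cells, the ciliated lining of the ventricles, share many of these genes. Of 8 ependymal markers, 4 could be tested and 3 were higher (Spata17, Dynlrb2 and Ccdc170), the last 2 of which were also on the cilium list. Without the filter 5 of the 8 were higher. For those that were not tested or not called, the UMIs over all choroid plexus nuclei were none for Ccdc153, 0.8 for Tmem212, 2 for Rarres2, 3 for 1700016K19Rik and 8 for Cfap126. The last stood at a mean of 12.1 CPM against 0.48 in the other nuclei, and 1700016K19Rik at 2.56 against 0.173.

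RFX factors bind a motif known as the X-box, and their targets are largely cilium genes, so the 250 bases before the annotated starts (RefSeq, GRCm38.p6) were searched on both strands for the half-site GTTGCCA. Windows were found for 26 of the 31 higher motile cilium genes, and 7 of these (26.9%) held the letters, against 4.19% of the 27025 genes with a window. A match is a description of the sequence and no evidence of binding. The 3 matching genes with the largest differences, Lrriq1, Cfap44 (3.76 ± 0.21 SE) and Kif9 (3.13 ± 0.26 SE), are shown 5′ to 3′ with the half-site, on either strand, in capitals. In these windows the last match ended 12, 13 and 20 bases before the annotated start.
Lrriq1, chr10:103236323-103236572, minus strand: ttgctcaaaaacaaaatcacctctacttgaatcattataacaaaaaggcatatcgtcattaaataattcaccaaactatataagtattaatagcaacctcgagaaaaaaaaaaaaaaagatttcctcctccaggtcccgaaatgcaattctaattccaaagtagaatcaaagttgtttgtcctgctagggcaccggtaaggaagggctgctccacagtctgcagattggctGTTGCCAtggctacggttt
Cfap44, chr16:44394549-44394798, plus strand: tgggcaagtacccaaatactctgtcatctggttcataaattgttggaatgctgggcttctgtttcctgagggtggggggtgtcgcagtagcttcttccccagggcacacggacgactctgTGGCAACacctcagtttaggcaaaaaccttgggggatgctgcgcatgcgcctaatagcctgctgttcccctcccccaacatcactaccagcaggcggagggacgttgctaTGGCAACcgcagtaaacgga
Kif9, chr9:110476744-110476993, plus strand: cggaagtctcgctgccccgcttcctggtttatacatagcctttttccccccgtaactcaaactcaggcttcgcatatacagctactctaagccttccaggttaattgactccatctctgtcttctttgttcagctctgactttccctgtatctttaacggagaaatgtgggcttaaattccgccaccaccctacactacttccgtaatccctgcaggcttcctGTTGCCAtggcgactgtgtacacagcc

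The core of the site that OTX factors bind, TAATCC, was searched in the same way. It was found before 2 of 16 higher held-out markers with a window (12.5%), Otx2 itself and Car14, and before 7.21% of all genes, so its share among these few genes was near that of all. The Car14 window is shown because its match, in capitals, lies 55 bases before the start of a gene for a membrane carbonic anhydrase.
Car14, chr3:95904686-95904935, minus strand: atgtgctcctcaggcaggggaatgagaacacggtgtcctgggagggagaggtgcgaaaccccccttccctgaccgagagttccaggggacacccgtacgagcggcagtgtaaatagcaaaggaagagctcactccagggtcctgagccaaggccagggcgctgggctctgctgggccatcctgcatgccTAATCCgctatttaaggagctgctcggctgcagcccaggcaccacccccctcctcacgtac

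The ion pumps and channels that drive fluid secretion were among the strongest groups. Of 23 tested genes of ion and water transport, 15 were higher and 1 lower, with a median log2 difference of 3.47, and without the filter 16 of 24 were higher and 1 lower. Among the higher genes, Slc4a5, Kcnj13, Kcne2, Aqp1, Car12, Car14 and Clic6 were held-out markers as well. Summed, the list reached 24992 to 44381 CPM in choroid plexus nuclei and 2531 to 3234 in the others. With only nuclei of at least 3 Ttr UMIs it was 36009 to 62064. WT male 1, which kept 7 such nuclei, then moved from the lowest library to the highest. Trpm3, a cation channel gene that is also the host of a microRNA gene, gave most of this. It stood at 18303, 30268, 30378, 23848 and 19294, against 1536 ± 235 in the other nuclei (log2 difference 3.47 ± 0.35 SE, adjusted p = 2.3e-21). It was the highest of the list in every library.

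Stk39, the kinase SPAK that switches on the sodium potassium chloride cotransporter, stood at 2326, 4197, 4949, 3148 and 1735, against 157 ± 15.5 (3.79 ± 0.29 SE). Its target Slc12a2, the cotransporter NKCC1, had a smaller difference of 2.12 ± 0.22 and was even across libraries at 626, 590.2, 696, 545 and 645. Slc4a10, a basolateral bicarbonate transporter, had a log2 difference of 2.39 ± 0.28. Slc4a2, an anion exchanger (4.07 ± 0.24), Trpv4, a cation channel that senses osmotic change (6.26 ± 0.36) and Atp2b3, a calcium pump (3.87 ± 0.21), were higher as well. Slc4a7, another bicarbonate transporter, was the lower one at -1.26 ± 0.26, and with totals alone as the scale it was no longer called, at -0.79. The sodium pump beta subunits Atp1b1 and Atp1b2 did not pass, with log2 differences of 0.48 and 0.68.

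Carriers that bring nutrients and hormones into the cerebrospinal fluid were higher for 13 of 20 tested genes, and for 13 of 23 without the filter, and none was lower. Slc23a2, the vitamin C transporter SVCT2, had a log2 difference of 1.97 ± 0.22 SE, Slc2a12, a sugar transporter, one of 4.26 ± 0.25 and Slco1a5, an organic anion carrier, one of 5.17 ± 0.44. Slc46a1, the proton-coupled folate transporter, gave no UMI. Rdh5 and Slc16a8 of this list were held-out markers as well.

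Among 19 tested secreted factors, 14 were higher and none lower, with a median log2 difference of 2.17. Without the filter 13 of 24 were higher and the median was 1.43. Of the list, 5 were held-out markers as well. Sostdc1, an inhibitor of BMP and WNT signals, had a log2 difference of 7.16 ± 0.33 and Wfikkn2, an inhibitor of GDF11 and myostatin, one of 7.22 ± 0.34. Growth factor genes were closer to the other nuclei. Igf2 stood at 74.5, 65.6, 106, 122 and 73.6, against 8.15 to 21.9 (2.17 ± 0.29), and Igfbp2, an insulin-like growth factor binding protein, had a log2 difference of 2.92 ± 0.21. Bmp6 (1.97 ± 0.21), Bmp7 (1.69 ± 0.36) and Vegfa (1.24 ± 0.23) were higher. Without Het male 2 the log2 difference of Bmp7 was 1.28, with an adjusted p of 0.0592.

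Hormone and growth factor receptors moved both ways. Of 24 tested, 3 were higher and 7 lower, where 9.02% and 12.8% of all genes were, and with totals alone 5 were higher and 4 lower. Without the filter 2 of 25 were higher and 7 lower. The 3 were Lepr, Fgfr2 and Lrp2. Lepr, the leptin receptor, had a log2 difference of 3.18 ± 0.23 SE and stood at 59.6, 105, 112, 270.1 and 265. Fgfr2, which overlaps many annotated genes, had one of 1.39 ± 0.25. Lrp2, the megalin receptor, gave 11 UMIs in all and was not called under 6 of the 15 other settings.

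Epithelial junction and polarity genes were divided. Of 21 tested, 11 were higher and 2 lower, and without the filter 13 of 26 were higher and 3 lower. Cldn2, the claudin of leaky epithelia that lets cations and water pass, stood at 59.6, 105, 115, 124 and 71.1, against 0.0855 to 0.525 (log2 difference 7.80 ± 0.38 SE). Cdh3, P-cadherin (6.99 ± 0.30), Krt18, a keratin of simple epithelia (7.80 ± 0.60, 15 UMIs), Cldn1 (5.06 ± 0.37) and Ocln, occludin (4.04 ± 0.32), were higher. Cdh2, N-cadherin, was lower at -1.87 ± 0.27, as was the scaffold gene Magi3, whose call was lost under 4 of the 15 other settings. Cdh1, E-cadherin, gave 4 UMIs and Epcam none. Cldn2 of this list was a held-out marker as well.

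**Figure D4:**
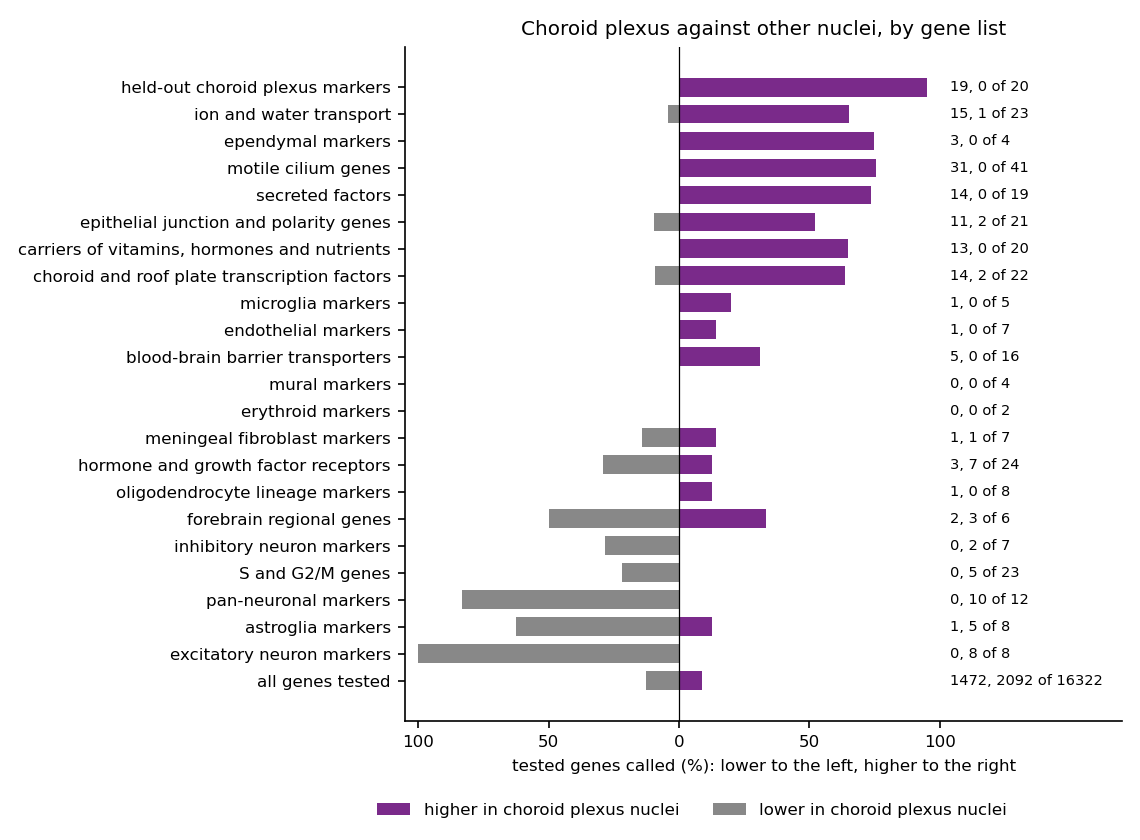
Share of the tested genes of each list that were higher (right) or lower (left) in choroid plexus nuclei than in all other nuclei, with the counts of higher and lower genes and of genes tested at the right edge. The 1472 higher and 2092 lower of all 16322 genes tested form the lowest bar; the held-out markers stand at 19 of 20 and the excitatory neuron markers at 8 of 8 lower.

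Markers of position gave few UMIs. Of 13 hindbrain Hox genes, 12 were at 0 in all choroid plexus nuclei and Hoxa3 gave 1.5 UMIs. Summed, the 13 stood at 0 to 6.22 CPM there and at 0.769 to 1.36 in the other nuclei. As 3 counts over the group would be 4.65 CPM, these counts do not set the choroid plexus nuclei apart. Among 6 tested forebrain regional genes, and among all 9 without the filter, 2 were higher and 3 lower. Six3, a factor of the anterior midline, was higher at 89.4, 39.3, 37.3, 42.5 and 45.7 against 2.67 to 9.31 (2.39 ± 0.41 SE), and Dmrta2 was the other. With the nuclei that held Folr1 or Kl neither was called. Lhx2 of the telencephalic wall (-2.22 ± 0.48) was among the lower ones, as was Emx1, which gave no UMI and lost its call under 5 of the 15 other settings. Of 23 tested genes of DNA replication and mitosis, none was higher, 5 were lower and 18 were not called. The lower calls depended on the setting, with 3 of 24 without the filter, 2 under RLE normalization, 1 with totals alone and 0 under DESeq2 or without Het male 2.

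Markers of other cell types were measured beside these. Of 12 pan-neuronal genes, 10 were lower, among them Rbfox1, a splicing factor of neurons (-2.33 ± 0.32 SE), and Nrxn3, a synaptic adhesion gene (-1.59 ± 0.31). Without the filter 11 of the 12 were lower. Their summed level was 18016, 5501, 6154, 9537 and 15225 CPM, against 20924 to 22867 in the other nuclei, so WT male 1 and Het male 3 stood nearest to the other nuclei. With only nuclei of at least 3 Ttr UMIs, the sum was 3452 to 9590 and all 12 were lower. The lowest of these sums, in WT male 1, rests on 7 nuclei. All 8 excitatory neuron markers were lower, and 5 of them with totals alone or under DESeq2. Of 7 inhibitory neuron markers 2 were lower, 3 without the filter, and none under RLE normalization, totals alone or DESeq2, without the block, or without Het male 2 or WT female 2.

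Of 8 astroglial markers, 5 were lower and 1 higher, and of 8 oligodendrocyte lineage markers only Pdgfra was higher. One of 5 tested microglial markers, Cx3cr1, was higher with 13.8 UMIs, and it was not called without Het male 2, without Het male 3 or with the nuclei that held Folr1 or Kl. None of 4 tested mural markers or 2 erythroid markers was called. Of 7 meningeal markers 1 was lower and 1 higher, again Pdgfra, which is on both lists. Mural markers summed to 0, 275, 74.6, 139 and 55.8, against 39.6 to 93.7 in the other nuclei. Meningeal markers summed to 74.5, 512, 236, 294 and 244, against 101 to 225. The 8 endothelial markers summed to 59.6, 446, 43.5, 456 and 76.1, against 36.0 to 194 in the other nuclei and 5578 to 7412 in endothelial nuclei. WT male 2 and Het male 2 were thus high, with a part of the endothelial level. Kdr was the endothelial marker called higher (1.10 ± 0.31 SE), and without Het male 2 its adjusted p was 0.682. The part of these UMIs in the results above was not tested.

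Outside the lists, the 15 largest differences, taken over genes higher in all 5 libraries with at least 20 UMIs, belonged largely to RNA genes without a name of their own. 3100003L05Rik, a long non-coding RNA gene at chr7:124625670-124708935 (GRCm38, minus strand), stood at 119, 275, 187, 162 and 147, against 0.33 to 0.745 (7.74 ± 0.32 SE). Rbm47, an RNA-binding protein of epithelia, stood at 567, 1180, 1288, 904 and 533, against 5.54 ± 1.49 (6.79 ± 0.27). Both were far above the other nuclei in every library.

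Some of the 15 lie beside one another or beside a gene described above. Otx2os1, a long non-coding RNA gene (chr14:48668708-48870683, plus strand), overlaps Otx2 (chr14:48657677-48673819, minus strand) and was the more abundant of the pair at 1347 ± 363 (SD, n = 5; log2 difference 6.71 ± 0.30). Folr2, a folate receptor gene (chr7:101839988-101857194, minus strand), lies next to Folr1 of the rule (chr7:101858331-101870788, minus strand) and had a log2 difference of 7.54 ± 0.36. Mfrp, a frizzled-related membrane protein (7.08 ± 0.42), overlaps C1qtnf5 on the same strand, so their reads cannot be fully told apart. Whether strand was used in counting is not stated in the sources read, and values of overlapping genes are uncertain for that reason. The rest were Gm40663, G630093K05Rik, Gm29538, Gm43323, 2610204G07Rik, D630024D03Rik, 4933429O19Rik, Gm13266 and Tc2n, with log2 differences of 6.14 to 7.73.

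The 10 lowest genes outside the lists gave at most 0.5 UMIs each in choroid plexus nuclei, which held 645747 UMIs. Cacna1i, a calcium channel gene of neurons, stood at 27.4 ± 2.99 in the other nuclei (SD, n = 5), at least 5.89-fold higher than the 3 counts over the group that a count of 0 allows. Ddx25 was at least 2.75-fold lower in the same way. The others were Gm37107, C230071H17Rik, C030015E24Rik, Prelid3a, Gm37063, Gm36251, Gm46102 and Gm44228.

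Endothelial nuclei line the other barrier of the brain and were used for a closer comparison. They were taken at 3 or more UMIs of Flt1, Cldn5, Pecam1 and Cdh5 in at least 2 of these genes, which gave 522 nuclei in the same 5 libraries. Mural markers summed to 1253 to 2255 CPM in this set, against 39.6 to 93.7 in the nuclei outside the choroid plexus set. The part of mural RNA in the differences below was not tested. Of 3800 genes tested, 605 (15.9%) were higher and 698 (18.4%) lower in choroid plexus nuclei. Without the filter on low counts 6.11% of 22647 genes were higher and 6.8% lower.

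Of 16 transporters known from the blood-brain barrier, 14 were lower and 2 higher in choroid plexus than in endothelial nuclei, with a median log2 difference of -3.38, and these counts were the same without the filter. Slco1a4, an organic anion carrier, was 1 of the 2 higher ones (1.34 ± 0.20 SE). It stood at 427, 643, 506, 512 and 377, against 217 ± 62.8 in endothelial and 5.20 ± 2.68 in all other nuclei. Thus both barriers held Slco1a4 far above the rest, with choroid plexus the higher.

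Slc2a1, the glucose transporter GLUT1, stood at 65.1 ± 33.4 in choroid plexus and 580.3 ± 159 in endothelial nuclei (SD, n = 5; log2 difference -2.95 ± 0.26 SE). Against all other nuclei it was higher (1.77 ± 0.33), but not with the nuclei that held Folr1 or Kl (1.33, adjusted p = 0.0643). In the order of libraries it stood at 29.8, 118, 62.2, 69.6 and 45.7, and the highest levels were those of WT male 2 and Het male 2, where endothelial marker UMIs were high as well; their part in this level was not tested. Slco1c1, a thyroxine carrier, was lower at -4.34 ± 0.34, Abcb1a, the drug pump P-glycoprotein, at -5.55 ± 0.42 and Mfsd2a, a lipid carrier, at -4.49 ± 0.37. Slc22a8, the organic anion transporter OAT3, lay between endothelial nuclei and the rest, at -1.56 ± 0.26 against endothelial and 3.14 ± 0.25 against all other nuclei.

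The carriers of nutrients and hormones were divided, with 6 of 12 tested genes higher and 5 lower, and 9 of 22 higher and 6 lower without the filter. Their summed level was 2200 to 3521 CPM in choroid plexus and 4275 to 7208 CPM in endothelial nuclei. The ion transport list was mostly higher, with 16 of 24 genes higher and 2 lower than in endothelial nuclei without the filter on low counts, and 11 of 15 higher and 1, Kcnq1, lower with it. Slc4a10 had a log2 difference of 5.63 ± 0.32 SE and Trpm3 one of 5.55 ± 0.44. Cilium genes and held-out markers passed the filter on low counts mainly through the choroid plexus nuclei, so their counts too are given without it, where 32 of 42 cilium genes and 21 of 22 held-out markers were higher and none was lower. Some genes gave no UMI in any endothelial nucleus of these libraries, and against the 3 counts that this allows over the group Tmem72 was at least 210-fold, Car12 at least 131-fold and Cdh3 at least 83.0-fold higher. Among junction genes 7 of 26 were higher and 5 lower without the filter, and 2 of 10 higher and 4 lower with it, with Cldn2 at 5.74 ± 0.57 and Cdh2 at -1.99 ± 0.28.

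**Figure D5:**
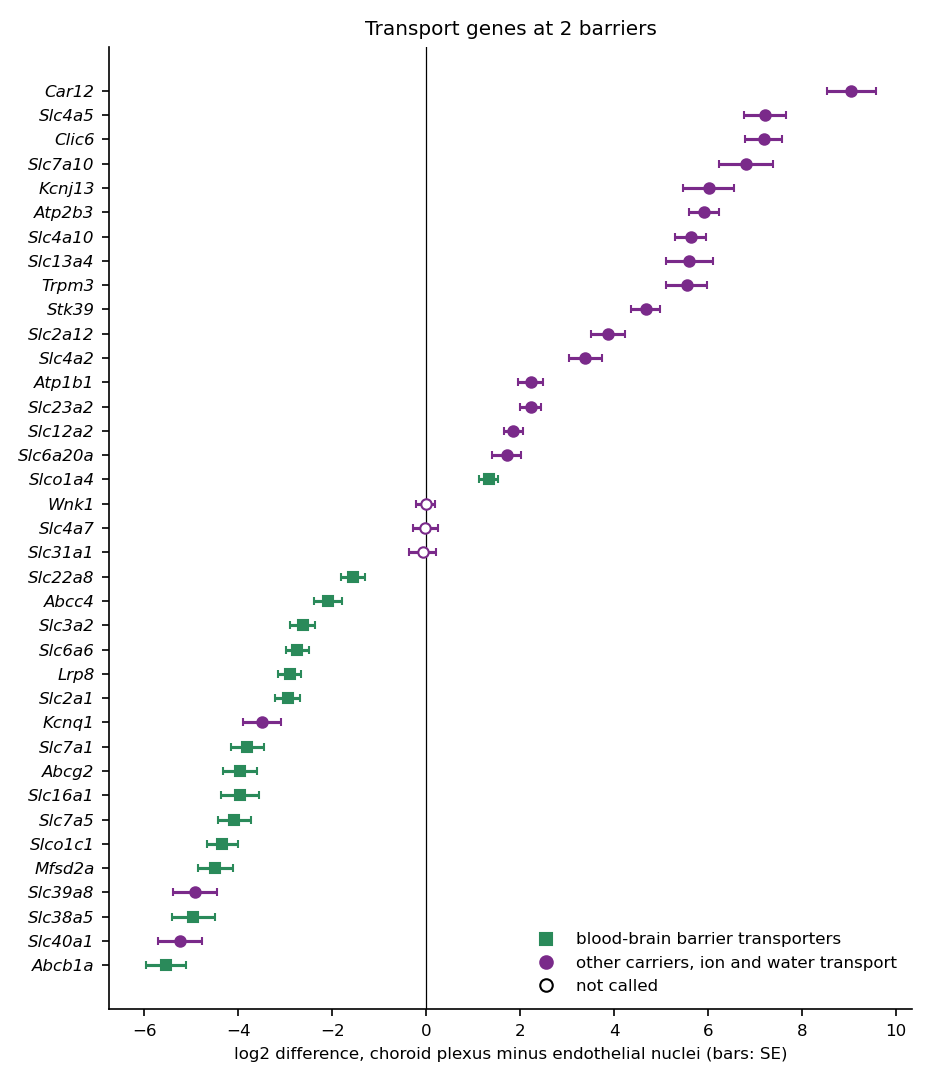
Log2 difference between choroid plexus and endothelial nuclei for transport genes that could be tested and are reported here. Bars are the SE of the fit to 5 libraries, not a spread of library values. Squares are blood-brain barrier transporters and circles other carriers and ion transport genes. Open symbols are genes that were not called. The squares shown lie to the left apart from Slco1a4, and the right side runs up to Car12, whose value is a fit to an endothelial count of 0.

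Genotype was not tested across genes within choroid plexus nuclei, since only 2 Het libraries held any, and no exact permutation test of 3 against 2 libraries can pass the threshold. Values are given side by side. Over the 16322 genes, both Het libraries lay above all 3 WT libraries for 12.5% and below them for 4.51%. Of the 20 held-out markers 1 lay above (F5) and 3 below (Slc4a5, Wfikkn2 and Car14), and 16 overlapped. Of 41 cilium genes 5 lay above, 1 below, and 35 overlapped.

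Lepr was one of the genes without overlap, at 59.6, 105 and 112 in the WT and 270.1 and 265 in the Het libraries. Of its list of 24 tested receptors 4 lay above, 1 below, and 19 overlapped. Myt1l itself stood at 1580, 354 and 348 in the WT and at 538 and 695 in the Het libraries, and these overlapped. Its level in choroid plexus nuclei was below that of the other nuclei (log2 difference -1.80 ± 0.28 SE), with WT male 1, the library with the highest share of pan-neuronal UMIs, standing apart at a level near theirs. The counts of choroid plexus nuclei per library, 13 to 117, and the UMIs of neuronal genes differed between these libraries too, and their part in these values was not tested.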

How the data were processed

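P1 forebrain nuclei were barcoded by animal at reverse transcription, pooled, processed together and sequenced by the authors. For each animal, here called a library, 1 matrix was deposited by gene and barcode. Its values, as deposited, are estimated counts, that is UMI counts that need not be whole. Mapping to mm10, counting and the matrices were done by the authors with ScaleRna, and their notes also name Seurat 4.3.0. Which step made the values fractional is not given in the sources read.

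Nuclei were filtered as described above. Doublets were scored against simulated pairs (2000 variable genes, 30 components, 30 neighbours) and kept in the main analysis. The top 5% of all barcodes by score was marked in each library, and 23 of the 298 (7.72%) were so marked, against 4.19% of kept nuclei. Counts were summed per library and kind of nucleus, with at least 5 nuclei, and rounded, since the design had assumed whole counts. edgeR 4.0.16 (R 4.3.3) was run with filterByExpr, TMM and the quasi-likelihood test, with the animal as a block because both sums came from the same library. The SE of a log2 difference was its size divided by the square root of the F statistic of that test. Benjamini-Hochberg adjustment ran over all genes tested. The 4 rule genes, and the 4 endothelial genes where used, were left out. Genes were named from fixed lists, with Myt1l and, outside the lists, the 15 highest and 10 lowest called genes that moved the same way in every library. Gene positions came from GENCODE M21 (GRCm38), which held 55154 of the identifiers. A few list genes entered the fits and counts but are not reported here by name. The members and gene lists were chosen with earlier results of these data known.

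On simulated data the test against other nuclei recovered 75% of 100 genes changed by 1.5 on the log2 scale. It recovered 99% of 100 genes changed by 3, with 11 calls on unchanged genes among 15918. Recovery with as many changed genes as were called above, 1472 higher and 2092 lower, was not tested. The simulation gave all genes the same dispersion and held no difference between animals. It changed only genes above a minimum expected count, so recovery for genes with fewer UMIs was not tested. Alternatives were DESeq2 1.42.0, other normalizations, no filter on low counts, other rules for members, removal of doublets, no block and leaving out each library. Python 3.11.15, numpy 2.4.6, scipy 1.17.1, pandas 2.3.3 and scikit-learn 1.9.0 were used for the rest.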

Additional observations from a re-analysis of the deposited data

How the results depend on the processing

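The difference in share between Het and WT libraries (0.371 percentage points) stayed positive under all 20 alternatives, at 0.0956 to 0.533 with exact permutation p from 0.109 to 0.558, and at 0.169 to 0.533 when each library was left out in turn. With the replicate number as a block it was 0.337 (exact sign-flip p = 0.5). The shared numbers mark no common litter or day in the labels. Against other nuclei, totals alone, chosen after seeing the data, gave 2236 higher and 1080 lower genes, DESeq2 gave 1295 lower and nuclei with Folr1 or Kl gave 882 higher. Against endothelial nuclei, no filter on low counts gave 1384 and 1541, with more genes tested. The causes of the other shifts were not tested. Leaving out each library gave 1095 to 1520 higher and 1663 to 2301 lower genes against other nuclei, and 478 to 813 and 522 to 889 against endothelial nuclei. Without the replicate block, and so without the pairing by animal, the counts were 1494 and 2225, and 635 and 712. Nuclei with at least 3 Ttr UMIs, also chosen after seeing the data, gave 1606 and 2741 against other nuclei. Of 117 called differences of named genes, 103 kept their call in every alternative in which they could be tested, which was fewer than the 15 run for 9 of all 117, and at least 12. The 14 that lost it in at least 1 were Bmp7, Cx3cr1, Dmrta2, Emx1, Gm44228, Kdr, Lrp2, Magi3, Nfib, Rfx3, Rfx4, Six3, Slc2a1 and Slc4a7. Of 6 named genes that were not called, Atp1b2 was called with totals alone (1.11), and Dnah12, at -0.03, turned positive under RLE normalization (0.10), totals alone (0.38), no replicate block (0.22), at least 3 Ttr UMIs (0.076) and without WT female 2 or Het male 2, with a range of -1.22 to 0.70 when each library was left out. Alternatives for genotype within choroid plexus nuclei were not run, since only 2 Het libraries held such nuclei. WT male 1 rests on 13 nuclei and 33539 UMIs, so a gene at 0 there may lie below its depth.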

Other observations

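Without the filter on UMIs, genes and mitochondrial share, 423 barcodes met the marker rule, 24 in WT male 1, 43 in WT male 2, 40 in WT female 2, 169 in Het male 2 and 146 in Het male 3. The remaining 1 lay in WT female 3, a library with none among its kept nuclei. Htr2c was also found without Ttr, as 852 kept nuclei had at least 3 UMIs of the 4 rule genes and no Ttr UMI. Of these, 351 lay in the 7 libraries without choroid plexus nuclei, and 6.10% of the 852 held at least 2 UMIs of the held-out markers, against 2.79% of all other nuclei.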
